A study of Mus musculus with 12 samples.

Results

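Levels of 5-methylcytosine (m5C) in polyadenylated RNA were compared between mouse heart and mouse lung, at every listed cytosine that had at least 20 reads in both tissues. The rule kept 1122 of 2498 listed sites (44.9%), in 922 of 1964 genes. A depth of 20 reads was reached at 1869 listed sites in heart and at 1184 in lung. The level of a site is the percentage of its reads in which the cytosine stayed unconverted after bisulfite treatment. All libraries came from wild-type C57BL/6 mice of 8 to 10 weeks. Heart had 1 library, from a female. Lung had 1 library from a female and 1 from a male, and both stand behind a single set of columns. Each tissue therefore has 1 value per site, no spread between animals can be computed, and tissue and sex cannot be told apart. The tests below set 1 deposited column against the other, so they cover counting error alone. In whole-tissue RNA, a different mix of cell types and a different level within the same cell type cannot be told apart.

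In RNA, m5C is written by methyltransferases of the NSUN family and by DNMT2. NSUN2 modifies tRNAs and many mRNA sites that lie next to a G-rich stretch, and NSUN6 modifies a smaller group of mRNA sites with its own sequence motif. ALYREF and the Y-box protein YBX1 are described as binders of modified RNA, with roles in export and stability. Bisulfite turns unmodified cytosine into a base that is read as T, while m5C is still read as C. Cytosines in stable RNA structures can also resist the treatment.

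Sequence around a site could be read where the site fell inside a RefSeq promoter window on the same strand, the 300 bases from 250 before to 50 after an annotated start in build GRCm38.p6. This held for 11 tested sites. All of them were C in the window, and 8 had 10 letters on both sides. They are shown because they are the tested sites whose surroundings could be read. Stretches carry the gene name listed for the site. The window itself was that of LOC115490186 for Adgra3, of Pdf for Cog8 and of Gm46104 for Dnm2. The Ppm1m cytosines lay before its annotated start. The tested cytosines are in capitals, and the Ppm1m stretch holds 3 of them side by side.
Ppm1m (chr9:106199101-106199123, minus strand): cgcgctccagCCCggtgccctat
Adgra3 (chr5:50058692-50058712, minus strand): gagcgcggggCcgcggcgctg
Mpc2 (chr1:165461254-165461274, plus strand): gctgccagagCcggggaaggg
Cog8 (chr8:107048654-107048674, minus strand): ggaagttacaCgggaactacg
Dnm2 (chr9:21465639-21465659, plus strand): ggcaggagatCgaagcagaga
Lrrfip2 (chr9:111118130-111118150, plus strand): gccgcagctgCagccgctgct

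In Ppm1m, a protein phosphatase gene, the last of the 3 cytosines in reading order, at position 106199111, had 34.3% in heart (277 reads) and 19.3% in lung (192 reads), and it was higher in heart (Fisher's exact adjusted p = 0.0011). The middle one had 12.4% and 6.74%, and the first one 18.8% and 11.2%, and neither passed the test. Adgra3, an adhesion receptor gene, had 17.1% in heart (216 reads) and 1.43% in lung (70 reads) and was higher in heart (Fisher's exact adjusted p = 0.00063). Dnm2, the dynamin of endocytosis, had 10.4% and 1.84%. Its difference of 8.60 points stayed under the 10 points set for a call, at a Fisher's exact adjusted p of 0.00027. Cog8, a subunit of a Golgi tethering complex, had 13.8% and 9.09%, Lrrfip2 had 5.34% and 0%, and Mpc2, a subunit of the mitochondrial pyruvate carrier, 0.668% and 0%. Lung had 22, 25 and 47 reads at these sites, and none passed the test. Of the 8 cytosines, 1 (Mpc2) was followed by NGGG, the letters known for NSUN2 sites, and 0 by TCCA, those known for NSUN6 sites. Among all 2442291 cytosines of the 32851 windows, with windows read on the strand of the gene, 3.05% were followed by NGGG and 0.669% by TCCA.

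Most sites had a higher level in heart. The median level over the 1122 sites was 10.7% in heart (quartiles 5.70% and 17.05%) and 1.85% in lung (quartiles 0% and 5.69%). Summed over all sites, 21.4% of 2552447 heart reads and 6.74% of 254438 lung reads were unconverted. Deep sites weigh heavily in these sums. A single site of Slc25a4 gave 118057 unconverted heart reads, and 1 of Lars2 gave 4903 unconverted lung reads. A level of at least 10% was reached at 620 sites in heart (55.3%) and at 142 in lung (12.7%), a level of at least 20% at 213 and 42, and a level of at least 50% at 29 and 7. Conversely, 41 sites in heart and 378 sites in lung had no unconverted read. The difference, heart minus lung, had a median of 7.84 points and quartiles of 3.02 and 13.3 points. It was above 0 at 977 sites, below 0 at 115 and 0 at 30.

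**Figure D1:**
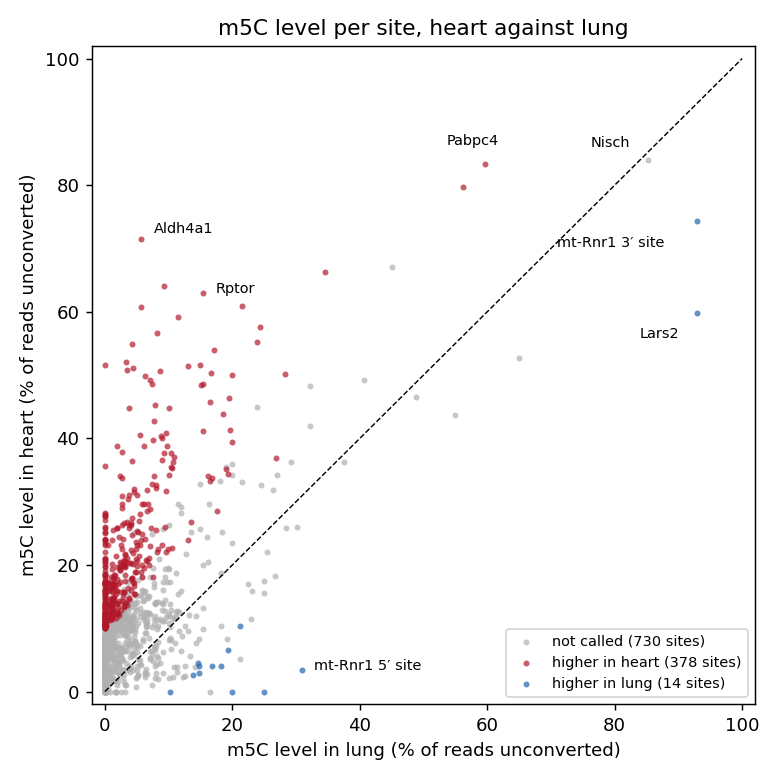
Level of m5C in heart (y axis, % of reads unconverted) against lung (x axis, same unit) at the 1122 sites, 1 point per site, coloured by the call, with a line of equal levels. The 378 sites called higher in heart lie well above the line, most of them at lung levels under 10%, and the 14 called higher in lung lie below it.

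A site was called where the two-sided Fisher's exact test of unconverted and converted reads gave a Benjamini-Hochberg adjusted p under 0.05 over all 1122 sites and the difference was at least 10 points. By this rule 378 sites in 333 genes, 33.7% of those tested, were higher in heart, and 14 sites in 13 genes, 1.25%, were higher in lung. The other 730 sites were not called. The difference was at least 20 points at 119 of the heart-higher sites, at least 30 points at 42 and at least 40 points at 16. Lung had no unconverted read at 113 of the 378, and a level of at least 10% at 39.

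Lung was read less deeply, with a median of 96 reads per site (quartiles 45 and 202) against 437.5 in heart (quartiles 167 and 1207). The median ratio of heart to lung coverage was 4.40, and lung had more reads at 120 sites. In bins of lung depth from shallow to deep, the share of sites called higher in heart was 24.1% (323 sites, median 32 reads), 36.9% (252 sites, 70.0 reads), 36.7% (264 sites, 143.5 reads), 39.1% (179 sites, 281 reads) and 38.5% (104 sites, 730.5 reads). The median difference in these bins lay between 7.25 and 8.39 points and did not rise or fall steadily with depth. At 50 reads or more in both tissues, 39.1% of 768 sites were higher in heart and 1.3% in lung, and at 10 reads or more 28.5% and 1.1% of 1365. A site can also be in the table because it was high in heart. The authors' deposited calls mark 578 of the 1122 sites as m5C in heart and 114 in lung. Among the 733 sites that they mark in any of the 4 further tissues, 39% were higher in heart and 0.819% in lung. Among the 308 that they marked in liver, small intestine or spleen, 135 (43.8%) were higher in heart and 6 (1.95%) higher in lung, with median levels of 18.1% and 6.38%. Both sets still hold sites that were also marked in heart. Of 337 sites marked in heart and a further tissue but not in lung, 241 were higher in heart. Of 313 marked in further tissues only, 12 (3.83%) were, but that class leaves out most heart levels of 10% or more.

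The 10 largest differences towards heart lay in 10 genes. Aldh4a1, which encodes a mitochondrial enzyme of proline breakdown, had 71.4% in heart (3477 reads) and 5.69% in lung (7 of 123 reads) at position 139648956 of chromosome 4. The difference was 65.7 points (95% interval 60.0 to 69.0, Fisher's exact adjusted p = 2.2e-50). At the same site muscle had 59.5% and liver 34.98%, while small intestine had 5.04% and spleen 2.174%. Lung was thus near spleen and small intestine there, and heart nearest to muscle.

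Afg3l1, which encodes a subunit of an inner-membrane mitochondrial protease in the mouse, had 60.8% in heart and 5.71% in lung (6 of 105 reads) at 123501322 of chromosome 8, with 46.1% in muscle. Nomo1, a gene of an endoplasmic reticulum membrane complex on chromosome 7 at 46068765, had 54.9% (3236 reads) and 4.33% (9 of 208 reads), with 48.3% in muscle. Rptor, which encodes the substrate-binding subunit of the growth-regulating kinase complex mTORC1, had 63.0% (759 reads) and 15.4% (18 of 117 reads) at 119899079 of chromosome 11. Muscle had 64.4% there, liver 46.3%, small intestine 21.2% and spleen 8.09%. Fisher's exact adjusted p was 1.9e-29 for Afg3l1, 5.6e-52 for Nomo1 and 1.9e-21 for Rptor.

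Entpd5, a nucleoside diphosphatase gene of the endoplasmic reticulum, had 52.0% (600 reads) in heart and 3.25% (4 of 123 reads) in lung. Cenpv had 59.1% (1027 reads) and 11.5% (7 of 61 reads). Gpr137 had 56.6% (226 reads) and 8.16% (4 of 49 reads). These sites differed by 48.7, 47.6 and 48.5 points, with Fisher's exact adjusted p of 6.6e-27, 7.6e-13 and 7.5e-10. The remaining sites of the largest 10 rest on fewer reads or on a pseudogene. Prkrir, listed by RefSeq as Thap12, had 51.5% (652 reads) in heart and 0 of 21 reads in lung, a count that allows a lung level of up to 14.3%. Tmc4 had 64% of 25 heart reads and 9.30% of 43 lung reads, and the authors' deposited calls mark it in neither tissue. Rpl34-ps1, a pseudogene whose reads could be shared with its parent gene Rpl34, had 50.8% (126 reads) and 3.51% (2 of 57 reads).

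**Figure D2:**
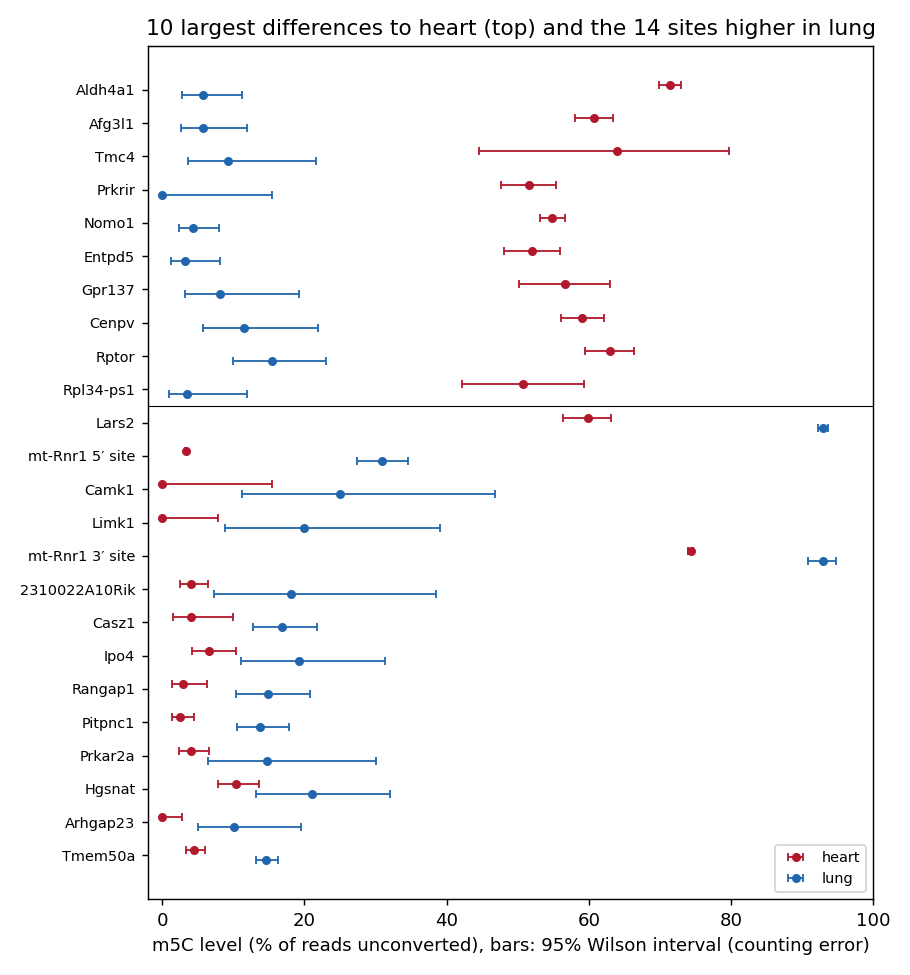
Levels in heart and lung (x axis, % of reads unconverted) at the 10 largest differences towards heart (top) and at the 14 sites higher in lung (bottom), 1 row per site, with 95% Wilson intervals that cover counting error only. In the top rows every heart interval lies right of the lung interval, and in the bottom rows the lung interval is wide for Camk1, Limk1 and 2310022A10Rik, which had 20 to 25 lung reads.

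At 22 sites heart had at least 20% and lung had no unconverted read, and all 22 were called higher in heart. The choice of such sites itself favours that call. Lung had 21 to 95 reads at them. Gid4, which encodes a substrate receptor of a ubiquitin ligase complex, had 20.96% in heart (167 reads) and 0 of 95 reads in lung, which allows up to 3.16%. Klhdc1 had 35.6% in heart (883 reads) and 0 of 90 reads in lung, which allows up to 3.33%. Ankrd11, a chromatin regulator gene, had 24.02% and 0 of 87 reads (up to 3.45%). Mrpl49, a mitochondrial ribosomal protein gene, had 20.4% and 0 of 80 reads (up to 3.75%). Spns1, a lysosomal transporter gene, had 20.8% and 0 of 75 reads (up to 4%). The Gid4 position also lies in the span of Atpaf2, and the Ankrd11 position in that of Gm39273, so the gene of these reads is uncertain. In all 5 the heart level lay at least 5 times above what the lung count allows, which follows from how these sites were chosen.

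At the heart-higher sites the tissues stood in the order that they had over all tested sites, apart from lung and spleen being level. Over the 298 of them that had 20 reads or more in each of the 6 tissues, heart had a median level of 18.5% (quartiles 13.9% and 26.6%) and muscle one of 19.2% (11.3% and 30.3%). The median was 8.21% in liver (3.74% and 15.3%), 4.07% in small intestine (1.49% and 8.52%), 1.98% in lung (0% and 5.49%) and 1.98% in spleen (0% and 5.07%). Of all heart-higher sites with enough reads, muscle reached 10% at 288 of 368, liver at 144 of 339, small intestine at 75 of 353 and spleen at 38 of 310. Over all tested sites with enough reads the counts were 668 of 1071 in muscle, 291 of 986 in liver, 160 of 1028 in small intestine and 100 of 868 in spleen. Over the 802 tested sites covered in 6 tissues, called or not, muscle had a median of 12.2% and heart one of 10.9%, followed by liver with 5.11%, small intestine with 2.93%, lung with 1.78% and spleen with 1.31%. These levels are given side by side without a test, and the heart-higher sites were selected for heart over lung.

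**Figure D3:**
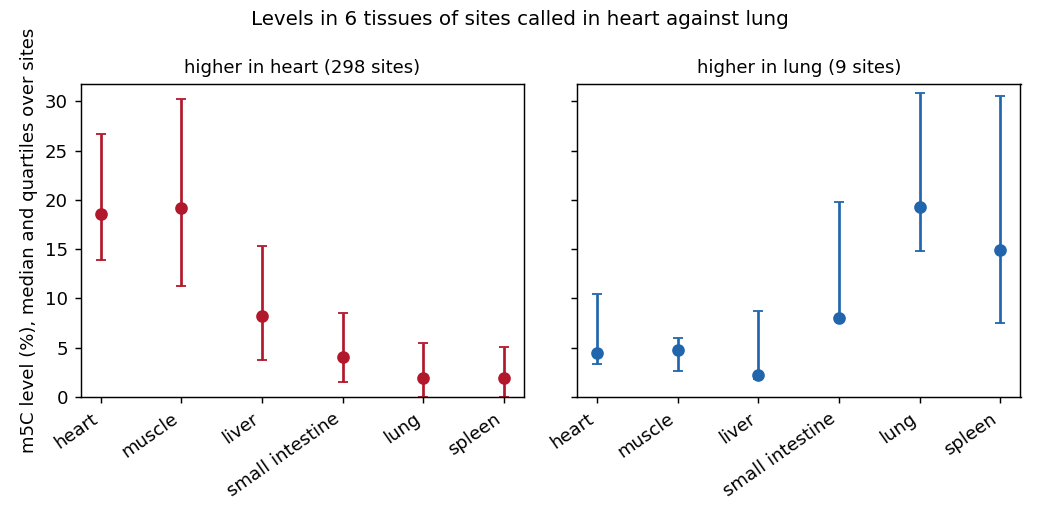
Median level with quartiles (y axis, % of reads unconverted) in each of the 6 tissues, at heart-higher and lung-higher sites with at least 20 reads in every tissue. Heart and muscle stand at 18.5% and 19.2% in the 298 heart-higher sites, and lung and spleen at 19.3% and 14.96% in the 9 lung-higher sites.

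The members of a pathway are described next by list. Sites beyond the most deeply read 4 of a list were chosen after their values were seen, as were the sites named for their neighbours or their odds ratios. Of 19 tested sites in 17 genes of the respiratory chain and TCA cycle, 13 (68.4%, against 33.7% of all sites) were higher in heart and 0 in lung, with a median difference of 13.3 points against 7.84 over all sites. Slc25a4, which exchanges ADP for ATP across the mitochondrial inner membrane of heart and muscle, had 48.6% of 243137 reads in heart and 15.4% of 758 reads in lung. Cox8b, a cytochrome c oxidase subunit, had 38.8% and 6.198% (15 of 242 lung reads). Ndufa10, a complex I subunit, had 40.002% and 8.96% (24 of 268 lung reads). The succinate dehydrogenase genes Sdhb and Sdhd were also higher in heart, with 17.97% against 4.25% and 20.04% against 2.86%. Atp5b, a subunit of ATP synthase, had 12.7% (109211 reads) and 1.88% (1812 reads). It passed the test with a difference of 10.8 points. Idh3b, a subunit of isocitrate dehydrogenase, was higher in heart at both of its sites, with 25.9% against 7.19% and 11.7% against 1.10%.

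Other members of that list were not called. Slc25a5, the ADP/ATP carrier of many other tissues, had 0 of 277 reads in heart and 1 of 315 in lung, and Suclg1, a subunit of succinyl-CoA ligase, had 0.341% and 0%. Mdh1, the cytosolic malate dehydrogenase, had 8.85% in heart and 12.05% in lung (20 of 166 reads), a difference of -3.20 points. Cox7c had 2 neighbouring sites. At 86046657 the levels were 20.3% and 3.75%, and the site was called. At 86046658 they were 11.8% and 2.84%, a difference of 8.96 points, under the 10 set for a call.

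Of 16 tested sites in 11 genes of mitochondrial proteolysis, dynamics and translation, 14 (87.5%) were higher in heart and 1, in Lars2, was higher in lung. Their median difference was 16.8 points. Spg7, the partner of Afg3l1 in the inner-membrane protease, had 38.8% (2258 reads) and 1.83% (2 of 109 reads). Afg3l1 itself was higher in heart at all 4 of its sites, by 15.7 to 55.1 points. Mfn2, which fuses mitochondrial outer membranes, had 50.4% and 16.7% at 147880008, and 15.8% and 1.34% at 147887416. Tufm and Gfm2, elongation factors of mitochondrial translation, had 32.1% against 8%, and 25.9% against 1.89% and 17.3% against 2.38%. Lonp1, the protease of the matrix, had 18.5% and 1.57%, and Vdac1, the outer-membrane channel, 14.4% and 2.63%. Tars2 had 5.33% and 0 of 21 lung reads and was not called. Of 6 genes of fatty acid oxidation and mitochondrial catabolism with 1 site each, 2 were higher in heart, Aldh4a1 and Hadha. That is 33.3%, near the 33.7% of all sites. Hadha, a subunit of the trifunctional protein of fatty acid oxidation, had 17.8% and 4.14%. Plin5, a coat protein of lipid droplets, had 10.9% and 1.56% with 64 lung reads, a difference of 9.31 points that stayed under the minimum. Mlycd, malonyl-CoA decarboxylase, had 4.33% and 0 of 81 lung reads.

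**Figure D4:**
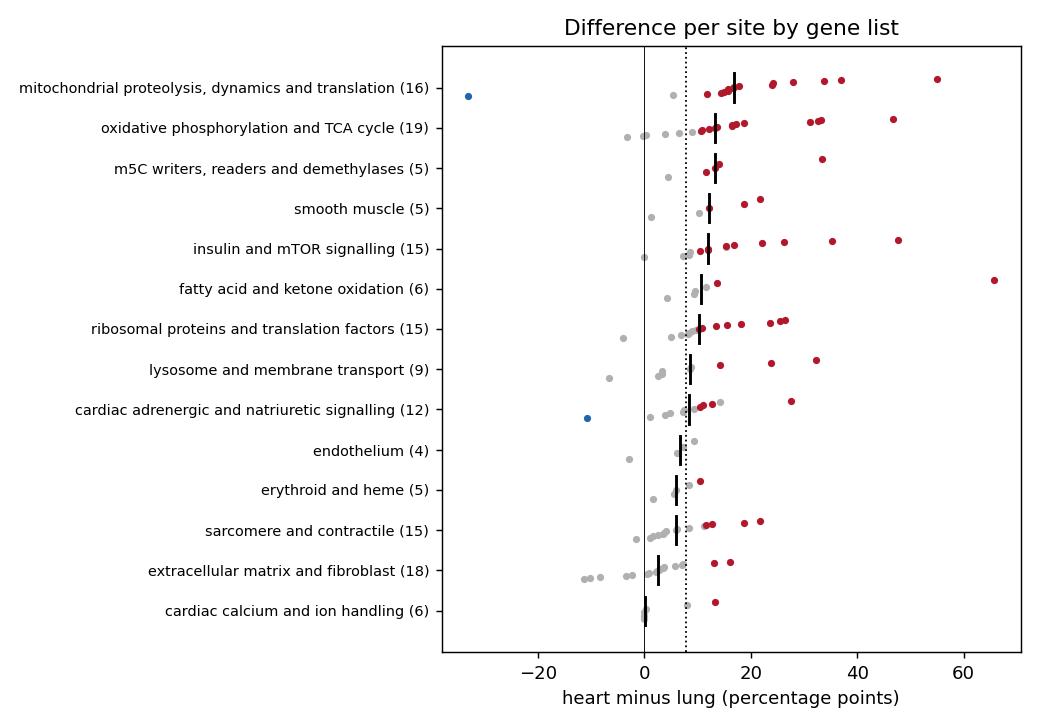
Difference in level, heart minus lung (x axis, percentage points), at each tested site of the gene lists (rows), coloured by the call. The lung epithelium list (1 tested site) and the immune list (2 tested sites) are not drawn. Marks show the median of each list, and a line the median over all sites, 7.84 points. The medians of the mitochondrial and mTOR lists lie to the right of the line, and that of the extracellular matrix list, 2.55, to its left. The sarcomere, calcium and ion handling, endothelial and erythroid lists also have medians to its left.

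In genes of the contractile apparatus the called share was near that of all sites. Of 15 tested sites in 12 sarcomere genes, 4 (26.7%) were higher in heart and 0 in lung, with a median difference of 5.88 points. Des, which encodes the intermediate filament desmin, had 23.7% (30831 reads) and 4.89% (48 of 981 reads) at 75367402, and 26.97% and 5.33% at 75367203. Tmod1, which caps thin filaments, had 16.3% and 3.58% at a position that the span of Tstd2 also covers. Ttn, the giant elastic protein titin, was higher in heart at 1 of 3 sites, with 11.6% and 0 of 41 lung reads. Muscle had 0.630% at that Ttn site. Myl4, an atrial myosin light chain, had 15.9% and 11.9%, and Myom2, an M-band protein, 11.8% and 10.8%, and neither was called. Vcl, vinculin of cell contacts, had 3.76% (2263 reads) and 0.170% (589 reads), a difference of 3.59 points.

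Of 6 tested sites in 4 genes of calcium and ion handling, 1 (16.7%, against 33.7% of all sites) was higher in heart. Atp2a2, which pumps calcium back into the sarcoplasmic reticulum, had 26.7% of 64394 reads in heart and 13.6% of 354 reads in lung (Fisher's exact adjusted p = 2.3e-08). Of 12 tested sites in 8 genes of adrenergic and natriuretic signalling, 4 (33.3%, near the 33.7% of all sites) were higher in heart and 1 in lung, and the median difference was 8.40 points. Adcy5, a cardiac adenylyl cyclase, had neighbouring sites at 35156983 and 35156984 with 15.7% and 36.6% in heart, and 3.06% and 8.99% in lung. Both were higher in heart, while muscle had 0.840% and 6.72% there. Pde4dip, a protein that anchors phosphodiesterase, had 23.97% and 13.01% at 97743184, and Pde3a, a cyclic nucleotide phosphodiesterase, had 10.5% and 0 of 74 lung reads at a position that the span of Gm28523 also covers. Prkar2a, a regulatory subunit of protein kinase A, was the lung-higher member. The other Pde4dip site, at 97741346, had 11.4% and 7.65% and was not called. Grk2, a kinase that desensitises adrenergic receptors, had 8.38% and 1.17% (257 lung reads). Its difference of 7.21 points stayed under the minimum, at a Fisher's exact adjusted p of 2.8e-05. Rgs3, a regulator of G-protein signalling, had 1.05% and 0 of 251 lung reads and did not pass the test.

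Of 15 tested sites in 12 genes of insulin and mTOR signalling, 9 (60%) were higher in heart and 0 in lung, with a median difference of 11.9 points. Akt2, the kinase downstream of the insulin receptor, had 37.8% (2494 reads) and 2.63% (4 of 152 reads) at 27638413, and 13.9% and 1.961% at 27638133. Foxo3, a transcription factor restrained by AKT, had 37.1% and 10.9% (42 of 387 reads). Gsk3b, a kinase inhibited by AKT, had 15.95% and 0.552% (2 of 362 reads). Akt1s1, an inhibitory subunit of mTORC1, had 19.2% and 2.42% (7 of 289 reads). Tsc2, an upstream brake of mTORC1, had 11.9% and 0 of 125 reads. Together with Rptor and with Igf2r at 2 neighbouring sites, these 6 sites make up the 9. Eif4ebp1, a translation repressor that mTORC1 phosphorylates, had 14.4% and 6.10%, a difference of 8.35 points that was not called.

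Of 15 tested sites in 13 genes of ribosomal proteins and translation factors, 8 (53.3%) were higher in heart and 0 in lung, with a median difference of 10.3 points. Rpl34 had 36.2% (13736 reads) and 10.7% (318 of 2973 reads), and Rpl23 had 34.1% and 7.70% (327 of 4247 reads). Rps14 and Rps21, among the most deeply read sites in lung, had 10.2% against 2.01% (11119 lung reads) and 11.8% against 2.18% (7445 lung reads). Their differences of 8.19 and 9.61 points were under the minimum for a call. Reads of ribosomal protein genes can be shared with their pseudogenes, and how such reads were assigned was not given in the sources used here. Pabpc4, a poly(A)-binding protein gene, was among the highest in both tissues, with 83.3% (2813 reads) and 59.6% (34 of 57 reads), and was higher in heart. Its paralog Pabpc1 had 2.28% and 6.33% (742 lung reads), a difference of -4.06 points.

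Of 9 tested lysosomal sites in 7 genes, 3 (33.3%, near the 33.7% of all sites) were higher in heart and 0 in lung, with a median difference of 8.62 points. Atp6v0a1, a proton pump subunit, had 39.7% and 7.51% (26 of 346 lung reads). Gaa, the acid glucosidase that degrades glycogen, had 29.6% and 5.88% (27 of 459 lung reads). Tpp1, a lysosomal peptidase gene, had 21.2% and 6.98% (43 lung reads). These 3 were the called ones. Gnptg, a subunit of the enzyme that tags lysosomal proteins, had 18.1% and 9.43% (212 lung reads). Its difference of 8.62 points stayed under the minimum, at a Fisher's exact adjusted p of 0.011. Smpd1, acid sphingomyelinase, had 2.58% and 0 of 81 lung reads at 105557723 and did not pass the test.

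Of the genes that write, read or remove m5C, 3 had tested sites. Of their 5 sites, 4 (80%, against 33.7% of all sites) were higher in heart and 0 in lung, with a median difference of 13.2 points. Of these 4, 3 lie in 1 gene, Ybx3. Ybx3, which encodes an RNA-binding protein of the Y-box family, had 48.4% (10092 reads) and 15.1% (147 of 975 reads) at 131388170 of chromosome 6 (Fisher's exact adjusted p = 2.3e-96). Muscle had 51.7% there, spleen 25.7%, small intestine 24.7% and liver 23.6%, so that lung was the lowest of the 6. Its other sites had 13.5% and 0.313% (3 of 959 reads) at 131370354, and 12.1% and 0.483% (1 of 207 reads) at 131388097, and all 3 were called. Nsun5, an RNA methyltransferase of the ribosome, had 14.04% (171 reads) and 0 of 63 lung reads, which allows up to 4.76%. That position also lies in the span of Pom121, so the gene its reads came from is uncertain. Dnmt3a, a DNA methyltransferase, had 11.1% and 6.67% with 30 lung reads, a difference of 4.39 points (95% interval -10.7 to 11.2) that did not pass the test.

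Genes of matrix, vessels and immune cells had median differences under that of all sites. The same held for sarcomere genes (5.88 points), calcium and ion handling (0.125 points) and erythroid and heme genes (6.01 points). Of 18 tested sites in 17 extracellular matrix and fibroblast genes, 2 (11.1%) were higher in heart and 0 in lung, with a median difference of 2.55 points and median levels of 11.4% in heart and 9.11% in lung. Lamb2, a laminin chain of basement membranes, had 21.5% and 5.41% (34 of 628 reads). Pdgfra, a receptor of fibroblasts, had 13.2% of 38 reads and 0 of 73 reads. Both were higher in heart. Col1a1, a chain of fibrillar collagen, had 10.8% and 9.98% (501 lung reads). Sdc3, a cell-surface proteoglycan, had 46.5% and 48.8% (289 lung reads). Igfbp6, a binding protein of insulin-like growth factors, had 34.3% (2959 reads) and 26.99% (3286 reads), with a 95% interval of the difference from 4.99 to 9.56 points.

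All 4 tested endothelial sites had a Fisher's exact adjusted p under 0.05, but none reached the 10 points set for a call. Their median difference was 6.67 points, and Tie1 was the 1 site with the higher level in lung. Vwf, von Willebrand factor, had 19.3% (1159 reads) and 10.1% (892 reads). Tie1, an endothelial receptor, had 6.26% and 9.19% (675 lung reads). Ace, the angiotensin-converting enzyme, had 13.9% and 7.79% (4709 lung reads) at 105968158, a difference of 6.14 points (95% interval 4.47 to 7.91), and Gm11651 spans that position too. The 2 immune sites were not called either. Csf1r, the receptor of macrophage growth factor, had 36.3% (1500 reads) and 29.3% (311 reads). Its difference of 7.07 points stayed under the minimum, at a Fisher's exact adjusted p of 0.035. Lyz1 had 0.525% and 0.550%. Abca3, a lipid transporter of alveolar cells, was the 1 tested lung epithelial gene, with 2.03% (344 reads) in heart and 0.917% (981 reads) in lung. Its position also lies in the span of D330041H03Rik.

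The tissue labels could be checked only weakly, since the table lists modified sites and not expression. None of 8 heart marker genes and 1 of 7 lung marker genes, Abca3, had a listed site. The same held for 1 of 3 endothelial, 1 of 4 immune and 0 of 2 erythroid markers. Of 5 smooth muscle sites, which include both Des sites, 3 (60%, against 33.7% of all sites) were higher in heart. Ckb, brain-type creatine kinase, had 13.3% and 1.14% (614 lung reads). Of 5 erythroid and heme sites, 1 (20%) was higher in heart, in the ferritin gene Fth1, with 10.6% (31765 reads) and 0.185% (5 of 2710 reads).

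The 14 lung-higher sites included mitochondrial ribosomal RNA, the Lars2 gene and several signalling and transport genes. Lars2, the mitochondrial leucyl-tRNA synthetase gene, had 59.8% of 789 reads in heart and 92.9% of 5276 reads in lung at 123462017 of chromosome 9. The difference was -33.1 points (Fisher's exact adjusted p = 5.2e-117), the most negative of all. It is a site where lung had more reads than heart, and whether reads from another locus are counted there was not tested. The mitochondrial 12S ribosomal RNA gene mt-Rnr1 had 2 tested sites near its 3′ end. At position 909, labelled the 5′ site in the figures, it had 3.38% in heart (66559 reads) and 30.9% in lung (200 of 648 reads). The authors' deposited calls mark position 909 as m5C in neither heart nor lung. Whether its unconverted reads stand for m5C was not tested. At position 911 it had 74.3% (68497 reads) and 93.0% (598 of 643 reads). Both sites were higher in lung, with Fisher's exact adjusted p of 8.1e-124 and 1.0e-32.

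Tmem50a, a membrane protein gene on chromosome 4, had 4.50% (911 reads) in heart and 14.6% (290 of 1983 reads) in lung at 134898006. Pitpnc1, a phosphatidylinositol transfer protein gene, had 2.56% and 13.8% (46 of 334 reads). Rangap1, which drives nuclear transport as the activator of the Ran GTPase, had 2.93% and 14.8% (27 of 182 reads). These 3 had Fisher's exact adjusted p of 2.4e-16, 3.7e-08 and 0.00011. With Lars2 and the pair of mt-Rnr1 sites they are the 6 that were also called at 100 reads or more in both tissues and with Holm-adjusted p-values. Casz1, which encodes a zinc finger transcription factor of heart development, had 4.04% of 99 reads in heart and 16.8% of 268 reads in lung at 148953353. A site 623 bases away, at 148952730, went the other way, with 41.4% in heart and 19.6% in lung (28 of 143 reads), and it was called higher in heart. Casz1 was the 1 gene with called sites in both directions.

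The other lung-higher sites had fewer lung reads. Hgsnat had 21.1% of 71 lung reads, Arhgap23 10.1% of 69, Ipo4 19.3% of 57, Prkar2a 14.7% of 34, Limk1 20% of 25, 2310022A10Rik 18.2% of 22 and Camk1 25% of 20. Heart levels there lay between 0% and 10.4%. At 4 of these sites the lung level rests on 5 or fewer unconverted reads. The Ipo4 position lies in the span of Tm9sf1, so its gene is uncertain. Spleen had enough reads at 9 of the 14 lung-higher sites and lay within 5 points of lung at 6 of them, with 92.8% at Lars2, 30.5% and 88.7% at the mt-Rnr1 sites, 16.8% at Rangap1, 14.96% at Tmem50a and 12.1% at Pitpnc1. Heart lay within 5 points of muscle at 10 of 12. These comparisons are descriptions without a test. The same counts were not taken over all tested sites, so they are not shown to be particular to the lung-higher ones.

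High levels in both tissues were rare. Nisch, which encodes the imidazoline receptor protein nischarin, had 84.1% of 207 reads in heart and 85.3% of 319 reads in lung, a difference of -1.21 points with a 95% interval from -7.80 to 4.92. Znrf1, a ubiquitin ligase gene, had 79.7% and 56.1% (32 of 57 lung reads) and was higher in heart. At 353 sites the 95% interval of the difference lay within 10 points of 0, and 24 of these had a mean level of at least 10%. Among them were Igfbp6 and Ace, described above. Selenok, a selenoprotein gene, had 14.1% and 7.84%. The complement gene C7 had 12.6% and 11.7%, a difference of 0.944 points (95% interval -2.73 to 5.07). Rpph1, the RNA component of RNase P, had 6 tested sites with 448 to 661 lung reads and none called. Its median difference was -1.85 points, and at 50807590 it had 22.1% in heart and 25.4% in lung. Its levels in both tissues lay within 7.14 points of each other at every site.

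The odds of an unconverted read were higher in heart by a median factor of 4.50, so each site was also compared with that median odds ratio by a two-sided exact test. By this test 73 sites (6.51%) lay above the median and 144 (12.8%) below it, and 58 of the latter still had a higher level in heart than in lung. Aes, a transcriptional corepressor gene on chromosome 10, lay above it, with 49.9% (18387 reads) and 6.34% (1135 reads). Tcirg1, a proton pump subunit gene on chromosome 19, lay above it with 17.04% of heart reads and 0 of 606 lung reads at 3896395, while muscle had 0% at that site. Sites of Fth1, Aldh4a1, Rplp0, Nomo1, Ybx3 and Rpl23 were also above. Of the lists, extracellular matrix had 1 site above and 10 below among 18, and the endothelial list 0 above and 3 below among 4. Oxidative phosphorylation had 3 above and 1 below among 19, insulin and mTOR signalling 3 and 0 among 15, and ribosomal proteins and translation factors 5 and 1 among 15. Mitochondrial proteolysis, dynamics and translation had 2 above and 1 below among 16, and fatty acid oxidation and mitochondrial catabolism 1 and 0 among 6. Some other heart lists had more sites below than above, as had all sites together (12.8% against 6.51%). Sarcomere genes had 0 above and 3 below among 15, with a median odds ratio of 1.85, adrenergic and natriuretic signalling 0 and 3 among 12, and calcium and ion handling 0 and 1 among 6. Tpm3, a tropomyosin gene, was below it at 90100580, with 2.33% of 386 heart reads and 12.2% of 788 lung reads, a difference of -9.85 points that missed the 10-point minimum.

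There were 140 genes with several tested sites, 340 in all, and every site of 117 genes had a higher level in heart. In 28 genes every tested site was called higher in heart, in 48 some but not all, and in 62 none was called. Tbcc, a tubulin folding cofactor gene, had 3 sites within 21 bases with 17.3%, 28.3% and 27.05% in heart and no unconverted read among 44 to 49 in lung. Rock1, a kinase of the actin cytoskeleton, had 3 adjacent sites with 12.5% to 13.7% in heart and none of 59 to 64 reads in lung. Such close sites are read by the same fragments and are not independent. Mapt, the microtubule-binding protein tau, had 4 sites spread over its gene with 8.81% to 13.1% in heart and 0% to 1.28% in lung, and 3 of them were called. Mknk2, a kinase that phosphorylates a translation factor, had 6 sites with 2.92% to 11.1% in heart and 0% to 8.97% in lung, and none was called.

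Sites were also counted by their place in the gene, without a test. In protein-coding genes at least 10 kb long, 39 of 114 sites (34.2%) within 1 kb of the 5′ end were higher in heart. The counts were 51 of 146 (34.9%) within 1 kb of the 3′ end and 186 of 612 (30.4%) elsewhere. Median differences were 8.29, 8.36 and 6.78 points. Sites with another listed site within 10 bases were higher in heart at 29 of 89 (32.6%), and sites without one at 349 of 1033 (33.8%). All these shares were near the 33.7% of all sites. The authors' deposited calls split the sites more sharply. Of 337 sites marked in heart and a further tissue but not in lung, 241 were higher in heart, and of 162 marked in heart alone, 81. Of 79 marked in both tissues, 34 were higher in heart and 1 in lung, at median levels of 33.7% and 16.8%. Of 313 marked in further tissues but in neither heart nor lung, 12 were higher in heart and 1 in lung. That last class holds no heart level that the authors called, and its median levels were 5.98% in heart and 0.366% in lung. Of 19 sites marked in lung alone, 6 were higher in lung and 0 in heart.

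**Figure D5:**
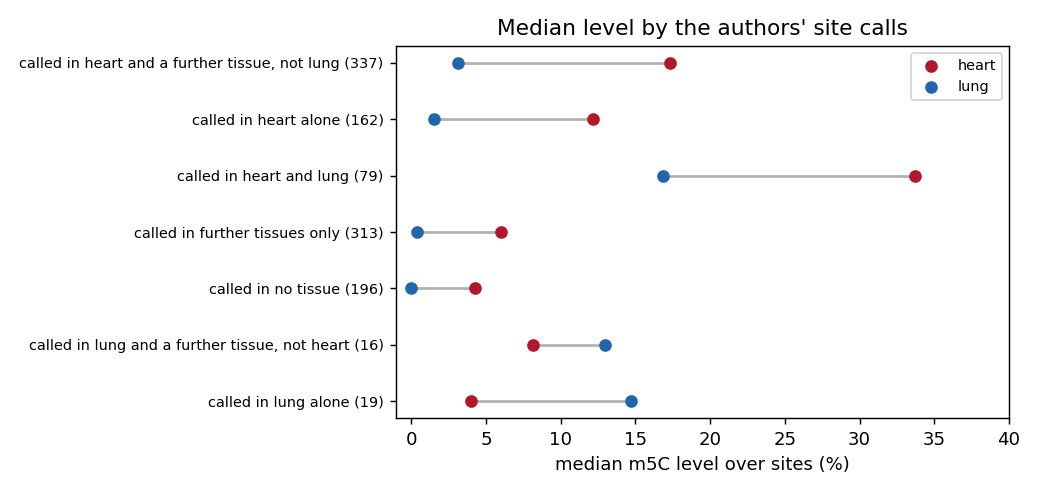
Median level over sites in heart and lung (x axis, % of reads unconverted) in each class of the authors' deposited calls (rows, with the number of sites), joined by a line. Heart lies right of lung in every class except those marked in lung and not in heart, and the classes are in part defined by these levels.

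At 42 heart sites and 28 lung sites the level was at least 10% without an authors' call, and 41 and 13 of these carry an authors' p-value of 1. The mt-Rnr1 site at 911 is one of them in lung, at 93.0%. Of the 378 heart-higher sites, the authors' calls mark 356 in heart and 34 in lung, and of the 14 lung-higher sites they mark 11 in lung and 2 in heart.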

How the data were processed

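Polyadenylated RNA of 6 mouse tissues was sequenced after bisulfite treatment in 12 libraries, of which 1 heart library and 2 lung libraries matter here. The submitters' processing notes name bcl2fastq 2.17, cutadapt, Trimmomatic, HISAT2 2.10, SAMtools and genome build mm10. How unconverted reads were filtered, how sites were chosen for the table and how libraries of a tissue were combined was not given in the sources used here. Each site, per the file headers, has for each tissue a count of reads, the m5C level as a fraction, 1 p-value and the authors' site call, a yes or no value of another kind. The lowest deposited count is 10 reads. What a blank stands for is not stated, and blanks were treated as no value. Each deposited fraction times its coverage lay within 4.80e-05 of a whole number, which was taken as the unconverted reads. The deposited p-values and calls served only to describe sites. If only positions with high levels were listed, medians depend on that choice.

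Sites with at least 20 reads in heart and lung were compared with Fisher's exact test (two-sided), with Benjamini-Hochberg adjustment over all 1122 sites, and called where the adjusted p was under 0.05 and the levels were 10 or more percentage points apart. Levels carry 95% Wilson intervals and differences 95% Newcombe intervals. A level of 0 allows up to 3 reads of the coverage. Reads are not shown to be independent molecules, so intervals, limits and p-values cover counting error only. A second exact test used the median odds ratio, with 0.5 added to each count to compute it, as the null. Gene names and spans were taken from RefSeq (GRCm38.p6, another name for mm10). Of 1122 site names 1116 matched, and the span of the named gene held 1101 sites. Promoter windows came from the same RefSeq build.

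The members, the 16 gene lists and the rule for named sites were chosen with earlier results of these data known, so lists have no test. The rule named the 10 largest called differences in each direction, the 5 most deeply read sites with no unconverted lung read and at least 20% in heart, the 5 highest mean levels, the 5 most deeply read sites with a mean level of at least 10% and an interval within 10 points of 0, up to 4 sites per list with the most reads in the shallower tissue, and every m5C-list site. The 4 further lung-higher sites were added since they are few, and 5 families by gene name were added after the values were seen. Alternatives changed the coverage minimum (10, 50 and 100 reads), the minimum difference, the adjustment, the test and the set of sites. A few members of the lists are not reported here by name. The pair test was also run on simulated independent reads, with equal levels in both tissues at unchanged sites. That setting lacks the general shift towards heart seen here, so it is no support for the calls above. Python 3.11.15 with numpy 2.4.6, pandas 2.3.3 and scipy 1.17.1, R 4.3.3 and matplotlib 3.10.9 were used.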

Additional observations from a re-analysis of the deposited data

Results flagged for a closer look

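A site in Eif2s3y, a gene of the Y chromosome, had reads in columns built from libraries labelled female, and it lies outside the comparison because lung had fewer than 20 reads. At position 1011964 of chromosome Y the heart column had 64 reads, of which 7 were unconverted (10.9%), and the liver column 65, muscle 38, small intestine 44 and lung 11. Spleen had no value. The X-linked gene Eif2s3x is a near-identical copy, and how reads were assigned between both was not given in the sources used here. It was not tested.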

How the results depend on the processing

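The comparison rests on 1 set of columns per tissue, lung depth limits many sites, and the table may hold sites because heart was high. No paired analysis was possible because each tissue has 1 set of columns, and leaving out a library could not be run for the same reason. The main counts were 378 sites higher in heart and 14 higher in lung. At 100 reads or more (516 sites) they were 201 and 6, without a minimum difference 595 and 23, at 20 points 119 and 4, with Holm adjustment 233 and 6, and against the median odds ratio 56 and 21. Among sites called by the authors in any further tissue, lung had 6. Among those called in liver, small intestine or spleen, a choice made after seeing the data, the counts were 135 and 6. Sites called in further tissues but in neither heart nor lung gave 12 and 1, median levels of 5.98% and 0.366%, and a median difference of 4.60 points. That choice leaves out most heart levels of 10% or more by construction. Elsewhere the median difference lay between 7.84 and 10.6 points.

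The level over summed reads moved by more than its counting interval. In heart it was 21.3% at 10 reads, 21.8% at 50, 22.3% at 100, 5.56% in neither-called sites, 25.1% in further-called sites, 21.1% without close neighbours, 20.4% without mt-Rnr1 and 20.5% with 1 site per gene. In lung it was 6.86% at 50 reads, 7.13% at 100, 2.33%, 9.20%, 6.64%, 6.46% and 6.86% under the same further choices. A minimum of 10 reads gave 389 and 15 calls, and 50 reads 300 and 10. Of 266 alternatives for 92 named sites, 238 kept their call or their lack of one. The other 28, all against the median odds ratio, were no longer called. Not all of these lost significance. Atp2a2 and Pde4dip at 97743184 lay below that median, with odds ratios of 2.31 and 2.08.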

Other observations

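Families gathered by the start of the gene name, after the values were seen, add genes not described above. Solute carriers had 21 tested sites in 18 genes, of which 10 (47.6%, against 33.7% of all sites) were higher in heart and 0 in lung, with a median difference of 10.3 points. Slc39a1, a zinc importer gene, had 40.4% in heart (735 reads) and 8.84% in lung (22 of 249 reads). Slc25a11, the mitochondrial oxoglutarate carrier, had 17.8% (13275 reads) and 1.83% (4 of 218 reads). Slc4a3, the anion exchanger of heart and brain, had 13.6% (6437 reads) in heart, 0 of 45 reads in lung and 0% in muscle. Slc43a2, an amino acid transporter gene, had at its called site 35.2% (159 reads) and 18.96% (80 of 422 reads).

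Ubiquitin ligases, their conjugating enzymes and deubiquitinases had 18 tested sites in 17 genes, of which 7 (38.9%, near the 33.7% of all sites) were higher in heart and 0 in lung, with a median difference of 10.2 points. Trim41 had 66.2% (299 reads) in heart and 34.5% (38 of 110 reads) in lung, and Ube2r2 had 40.8% (2908 reads) and 9.52% (14 of 147 reads). Rnf10 had 10.3% and 0.210% (1 of 477 reads). Fbxo3, Rnf123 and Usp3 were among the genes with no called site. Zinc finger genes named Zfp had 14 tested sites in 10 genes and a median difference of 4.26 points. The 1 call (7.14%) was in Zfp652, with 11.8% (2347 reads) and 0.680% (1 of 147 reads). That position lies in the spans of Abi3 and Phospho1, so its gene is uncertain. Regulators of small GTPases had 20 tested sites in 18 genes, of which 3 (15%) were higher in heart and 1, in Arhgap23, higher in lung. Their median difference was 4.01 points. Rap1gap had 13.8% (333 reads) in heart and 0 of 191 reads in lung, which allows up to 1.57%. Genes with the name of a kinase family had 22 tested sites in 16 genes, of which 6 (27.3%) were higher in heart and 2 (9.09%, against 1.25% of all sites) in lung, with a median difference of 6.46 points. The lung-higher ones, Camk1 and Prkar2a, rest on 5 unconverted lung reads each, and the heart-higher ones include Prkrir, which shares only the start of its name with kinases.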
